A study of Mus musculus with 6 samples.

Results

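Wound-edge keratins and alarmins are the genes that resting epidermis keeps low and that keratinocytes switch on when skin is injured. Of 48377 gene symbols in the count table, 7 were followed here, chosen by name: the keratins Krt17, Krt6a, Krt6b and Krt16, the calcium-binding alarmins S100a8 and S100a9, and Sprr1b, a small proline-rich protein of the cornified envelope. All 7 were present in the table and all had counts.

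Keratins assemble as pairs of one type I and one type II protein. In activated keratinocytes at a wound edge the type I keratins 16 and 17 pair with the type II keratins 6a and 6b, and Krt17 is also a standing keratin of the outer root sheath of the hair follicle. S100a8 and S100a9 form a heterodimer, calprotectin, which is stored in neutrophils and is made by keratinocytes of injured or inflamed epidermis. Small proline-rich proteins are cross-linked into the cornified envelope, and Sprr1b is one of those induced by stress.

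The samples were skin of Db/Db mice, a diabetic model in which the leptin receptor is defective. The 3 DMSO libraries came from mice given vehicle for 16 days, and the 3 PLX4032 libraries from mice given vemurafenib for the same time. Vemurafenib (PLX4032) is a BRAF kinase inhibitor, which the labels give at 1 uM, and all 6 libraries share the Db/Db background. The labels used here give no age, sex, wound position or number of animals. Whether each library is a separate mouse is not stated, so p-values measure only the spread among the 6 libraries, and part of it may be technical.

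Depth was low, at 14189 to 78434 counts per library, and 477 genes had enough counts for the test. Levels are given as CPM, read counts rescaled to 1000000 per library after TMM correction. For a gene without counts, the upper limit from counting error is 38.9 to 210 CPM, taken as 3 counts per library. All 30 genes of a keratinocyte list and all 12 of a fibroblast list had counts, where 16695 of the 48377 symbols had any. In the fibroblast list Col1a1 and Col3a1 had 2950 and 2790 counts. Dcn and Lum of the same list, named after their values were seen, had 4 and 3. The presence of counts is thus a weak check on the label of skin. Counts under a gene's name may belong to the other strand: Tsix held 704 counts and Xist, on the opposite strand of the same locus, 35. The housekeeping genes Gapdh and Actb held 6 and 47 counts over all libraries, so the limit may reach any gene of the table. Vehicle 3 stood apart for the 7 genes. It was the second deepest library, with 48798 counts, and held 2 counts of the 7 genes together, so results are given with and without it.

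The loci themselves limit how far single genes can be told apart. Krt17 lies at 11:100256217-100261029 and Krt16 at 11:100246091-100248902, both on the minus strand, 7315 bp apart. Krt6a (15:101689910-101694307) and Krt6b (15:101676023-101680287) are tandem copies on the minus strand. S100a8 (3:90668978-90670035, plus strand) and S100a9 (3:90692632-90695721, minus strand) are neighbours, and Sprr1b (3:92436809-92438789) lies further along the same chromosome. Positions are those of GENCODE M21 on mm10.

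The coding sequences of Krt6a and Krt6b were identical at 97.8% of 1659 aligned bases. Their longest identical run is 280 bases in the first coding exon, at 15:101693936-101694215 in Krt6a and 15:101679911-101680190 in Krt6b, coding bases 34 to 313 of both. It is shown because a read that falls inside it cannot be assigned to either gene.
Krt6a and Krt6b: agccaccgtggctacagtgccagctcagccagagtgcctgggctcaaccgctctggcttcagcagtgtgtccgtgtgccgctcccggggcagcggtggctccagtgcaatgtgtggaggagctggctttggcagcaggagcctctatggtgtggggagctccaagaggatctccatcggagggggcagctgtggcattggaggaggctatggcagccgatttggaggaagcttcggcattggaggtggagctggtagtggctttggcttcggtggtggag

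Of the distinct stretches of 50 bases in the transcripts of Krt6a, 40.2% also occurred in Krt6b, and 45.7% occurred in some other gene. For Krt6b 50.1% occurred in another gene. For Krt16 the share was 37.6%, most of it with the gene Gm11597 (25.2%) and with Krt14 (12.4%). Krt17 was much more distinct, with 60 of 1502 stretches shared, nearly all of it with Krt14 (3.66%). S100a8, S100a9 and Sprr1b shared none. No source used here gives the read length or the treatment of reads with several matches, so counts of Krt6a, Krt6b and Krt16 are uncertain in a way that those of Krt17 and the alarmins are not.

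S100a8 and S100a9 share no such stretch, and their coding sequences were identical at 57.3% of 267 aligned bases. The 250 bases before each start are shown because the pair gave different count patterns, described below, and the RefSeq table of GRCm38.p6 held promoters for 3 of the 7 genes (S100a8, S100a9 and Sprr1b). Starts are those of RefSeq. For S100a8 the end of the stretch lies inside the GENCODE span given above, which begins at 3:90668978. Capitals mark matches to 4 motifs searched on both strands.
S100a8, 3:90668821-90669070, plus strand: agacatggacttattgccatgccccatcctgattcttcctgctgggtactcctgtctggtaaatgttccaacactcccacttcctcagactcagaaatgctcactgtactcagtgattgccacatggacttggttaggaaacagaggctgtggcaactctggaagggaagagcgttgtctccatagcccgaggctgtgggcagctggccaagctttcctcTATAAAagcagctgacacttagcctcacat
S100a9, 3:90695722-90695971, minus strand: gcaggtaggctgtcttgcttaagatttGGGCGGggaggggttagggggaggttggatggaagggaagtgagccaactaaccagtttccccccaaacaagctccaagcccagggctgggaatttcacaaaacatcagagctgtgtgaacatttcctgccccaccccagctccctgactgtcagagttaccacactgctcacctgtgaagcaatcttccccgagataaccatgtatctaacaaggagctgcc

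The motifs were TATAAA, the Sp1 motif GGGCGG, the AP-1 motif TGANTCA and the STAT motif TTCNNNGAA. TATAAA stood 30 to 25 bases before the RefSeq start of S100a8 and GGGCGG 223 to 218 bases before that of S100a9. Sprr1b, not printed, held TATAAA and TGANTCA. Of 32851 promoters of this length, 12.4% held TATAAA, 32.7% GGGCGG, 6.75% TGANTCA and 7.02% TTCNNNGAA. These matches are a description of the letters and name no site in use.

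The comparison of vemurafenib with vehicle asks whether the injury genes of the epidermis differed after 16 days of drug. Krt17 averaged 176 CPM in vehicle-treated skin and 574 CPM in vemurafenib-treated skin, and did not pass the test across all genes. None of the other 6 genes was counted deeply enough to enter it. Of the 7 genes, 0 were called at an adjusted p under 0.05, where the background among the 477 tested genes was also 0 (0%), with 23 genes at an unadjusted p under 0.05. DESeq2 and limma-voom also called 0 genes of 477, with 14 and 40 genes reaching 0.05 before adjustment. The groups did not overlap for 2 of the 7, Krt17 and S100a8, both higher with vemurafenib. Among tested genes, 4.61% lay higher in every vemurafenib library and 4.19% lower. Among untested genes with at least 6 counts, 6.73% lay higher and 3.5% lower. The other 5 genes overlapped between the groups.

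**Figure D1:**
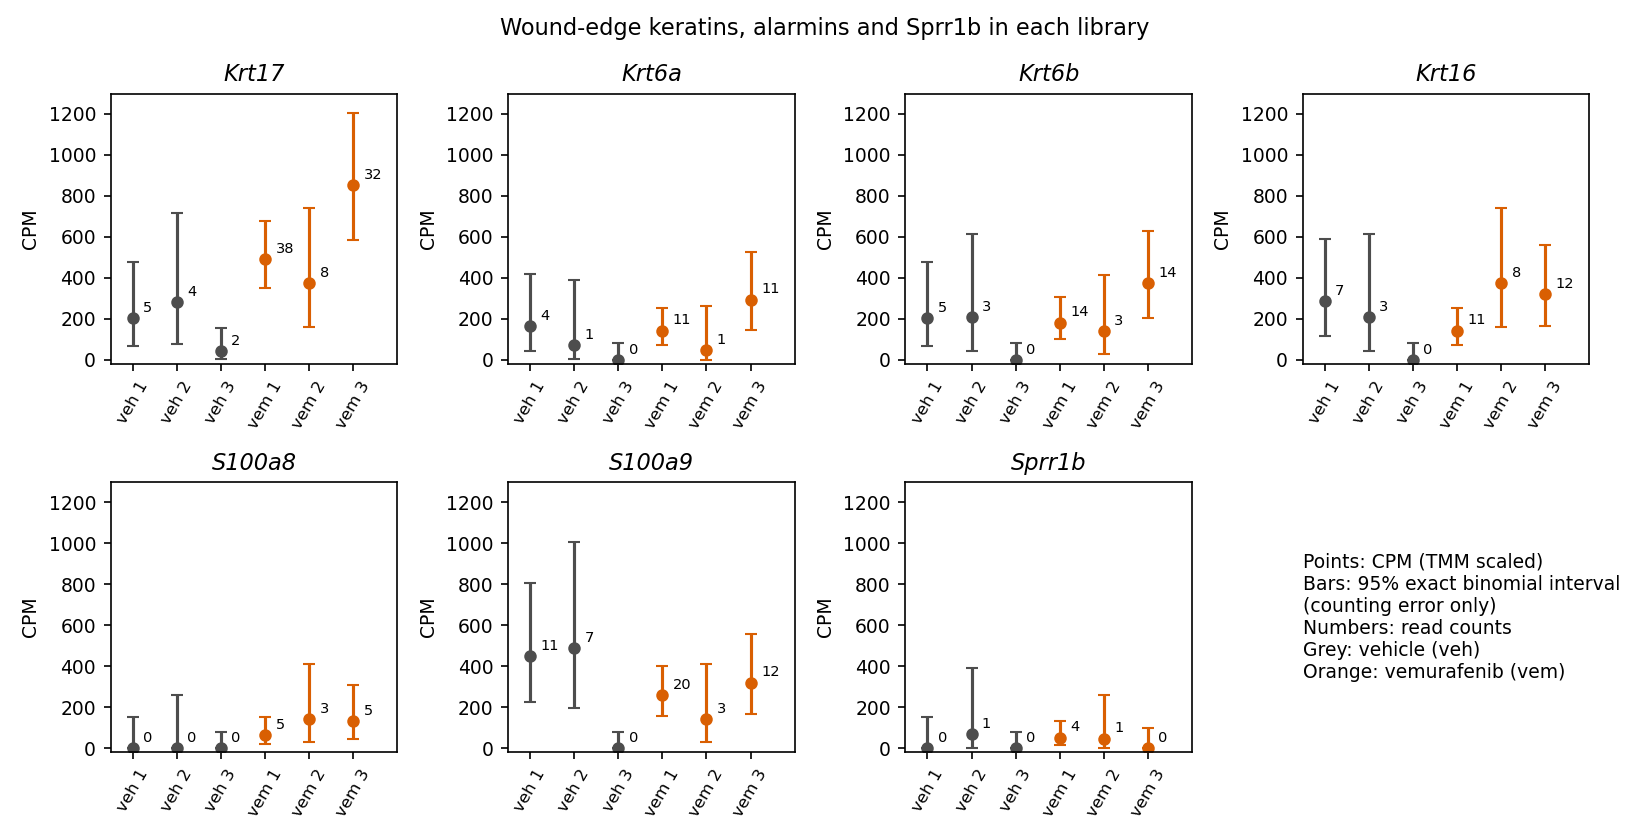
Level of each of the 7 genes in the 3 vehicle (veh, grey) and 3 vemurafenib (vem, orange) libraries, in TMM-scaled CPM, with the read count beside each point and 95% exact binomial intervals that cover counting error only. Krt17 and S100a8 are higher in every vemurafenib library, and 6 of the 7 genes have no count in vehicle 3.

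Krt17, the type I keratin, had 5, 4 and 2 counts with vehicle, in the order of the replicate numbers. It had 38, 8 and 32 with vemurafenib, and the same order is kept below. Scaled for depth, the vehicle libraries lay at 205, 280 and 43.3 CPM. The vemurafenib libraries lay at 493, 376 and 853 CPM. Each vemurafenib library was thus above each vehicle library, but the 95% exact binomial intervals of vehicle 2 (76.3 to 717 CPM) and vemurafenib 2 (162 to 740 CPM) covered much of the same range. The group means were 176 ± 121 and 574 ± 249 CPM (SD, n = 3). Krt17 had a log2 fold change of 2.02 ± 0.56 (SE), an unadjusted p of 0.00152 and an adjusted p of 0.242 with edgeR's quasi-likelihood test. The filter asked for 326 CPM in 3 libraries, before TMM correction, and Krt17 reached it in the 3 vemurafenib libraries and in 0 vehicle libraries, a pattern that 5 of the 477 tested genes had, Krt17 included. It thus entered the test only through the group in which it was high. With a filter on the total over all libraries instead (at least 10 counts), the log2 fold change was 2.00 and the adjusted p 0.14. Without vehicle 3 the log2 fold change was 1.33 and the adjusted p 0.997. Over the alternatives the adjusted p of Krt17 ran from 0.0648 to 0.997.

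**Figure D2:**
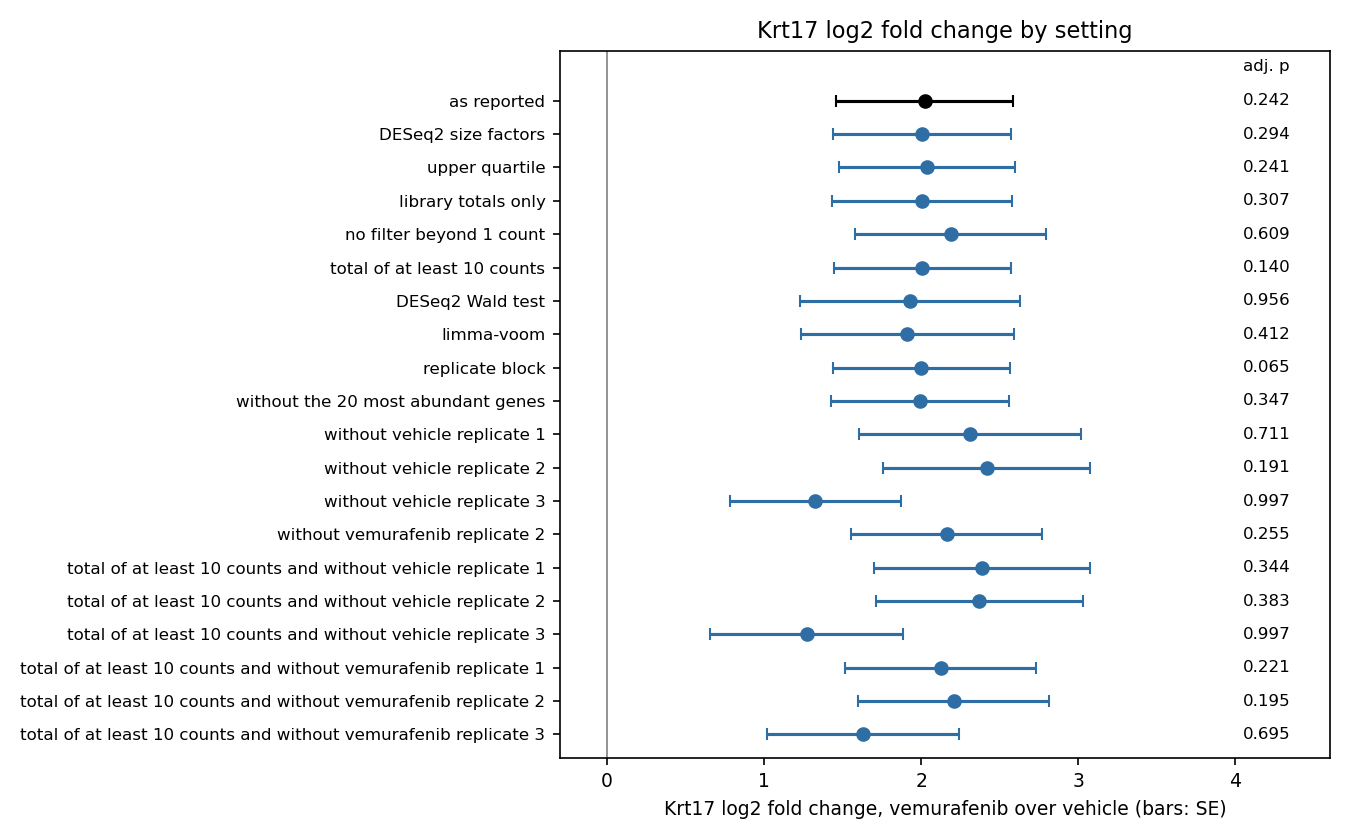
Log2 fold change of Krt17, vemurafenib over vehicle, with its SE (bars) under each setting that gave a value, and the adjusted p at the right. All values are above 0, and the 2 lowest, 1.33 and 1.27, are those without vehicle 3.

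Krt16, the other type I keratin of the wound edge, had 7, 3 and 0 counts in the vehicle libraries against 11, 8 and 12 in the vemurafenib libraries. Its levels were 286, 210 and 0 CPM against 143, 376 and 320 CPM. Vemurafenib 1 lay below vehicle 1 and 2, so the groups overlapped. The difference of the mean log2(CPM + 10) was 1.63 (exact permutation test, two-sided, p = 0.5), and without vehicle 3 it was 0.07. With 3 against 3 libraries the smallest p this test allows is 0.1.

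The type II keratins followed a like course. Krt6a had 4, 1 and 0 counts with vehicle and 11, 1 and 11 with vemurafenib, or 164, 70.0 and 0 CPM against 143, 46.9 and 293 CPM. Krt6b had 5, 3 and 0 counts with vehicle and 14, 3 and 14 with vemurafenib, or 205, 210 and 0 CPM against 182, 141 and 373 CPM. For both genes vemurafenib 2 lay below vehicle 1 and 2, and only vemurafenib 3 lay above all vehicle libraries. The differences of the mean log2(CPM + 10) were 1.42 for Krt6a (exact permutation p = 0.5) and 1.52 for Krt6b (exact permutation p = 0.6). Without vehicle 3 they were 0.23 and 0.04.

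Features on the other strand had counts at both of these loci. Gm44383, a 129 bp feature annotated as a miRNA that lies wholly inside exon sequence of Krt6b on the opposite strand (15:101678032-101678160), had 20 counts, or 155 per kb of exon. Krt6b itself had 39, or 17.4 per kb. The like feature Gm44342 opposite Krt6a (15:101692211-101692339) had 5 counts, or 38.8 per kb, against 11.6 per kb for Krt6a. Gm44383 had 3, 2 and 1 counts in the vehicle libraries and 8, 1 and 5 in the vemurafenib libraries. Without the strand setting of the counting, which no source used here gives, the reads of these features and of the keratins cannot be told apart. Krt17, Krt16, S100a8, S100a9 and Sprr1b have no annotated gene on the opposite strand of their span. That does not show from which strand their counts came.

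S100a9 was the member with most counts per kb of exon, at 102, ahead of Krt17 at 57.4 and Krt16 at 26.2. It had 11, 7 and 0 counts with vehicle and 20, 3 and 12 with vemurafenib. On the CPM scale vehicle 1 and 2 were the highest libraries, at 450 and 490 CPM. Vemurafenib 1, 2 and 3 followed at 259, 141 and 320 CPM, and vehicle 3 had none. The difference of the mean log2(CPM + 10) was 0.85 (exact permutation p = 1). Its direction turned without vehicle 3, to -1.01, and the mean CPM with all libraries was lower with vemurafenib (240 ± 91.1 against 313 ± 272, SD, n = 3).

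S100a8, the partner of S100a9 in calprotectin, had 0 counts in each vehicle library and 5, 3 and 5 in vemurafenib 1, 2 and 3. Those counts correspond to 64.8, 141 and 133 CPM. The floors of 123 and 210 CPM in vehicle 1 and 2 lie near or above those levels. The floor of vehicle 3, at 64.9 CPM, lies below the levels of vemurafenib 2 and 3 and beside that of vemurafenib 1. Vehicle 1 and 2 were thus too shallow to show a difference from the vemurafenib levels. For vehicle 3 the floor does not decide it, because the exact binomial intervals overlap. They ran from 0 to 79.8 CPM in vehicle 3, 29.0 to 412 in vemurafenib 2 and 43.3 to 311 in vemurafenib 3. Overlap of intervals is no test, so they show neither a difference between these libraries for S100a8 nor its absence. No fold is given. The exact permutation test gave p = 0.1, the smallest possible. An edgeR fit without a filter beyond 1 count gave an unadjusted p of 0.00316 and an adjusted p of 0.707 for S100a8.

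Set against each other, S100a8 took 0 of 18 counts of the pair with vehicle (95% exact binomial interval 0 to 18.5%). With vemurafenib it took 13 of 48, or 27.1% (95% exact binomial interval 15.3 to 41.8). The intervals overlap, but overlap is no test of a difference, and pooled reads are not replicates. These shares thus show neither a difference nor its absence. By library it took 5 of 25, 3 of 6 and 5 of 17 counts of the pair with vemurafenib. By the same intervals, vehicle 1 with 0 of 11 and vehicle 2 with 0 of 7 allow up to 28.5% and 41.0%. The intervals of the single libraries overlap as well, which likewise decides nothing at this depth.

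Neutrophils, which carry both alarmins, left few other counts. Of 17 neutrophil genes 8 had any count and 21 counts were found in all. The defining genes Ly6g, Retnlg, Cxcr2, Camp and Ltf were at 0 in every library. The list's total ran from 21.6 to 140 CPM in the vehicle libraries, against 93.9 to 133 CPM in the treated ones. Csf3r, the receptor for granulocyte colony-stimulating factor, had 0, 0 and 1 counts with vehicle and 4, 1 and 2 with vemurafenib. Of 2 untested neutrophil genes with at least 6 counts, 1 (Csf3r) lay higher in every vemurafenib library and 0 lower. The backgrounds were 6.73% and 3.5%. Il1r2 went the other way in mean CPM, at 37.0 against 17.3, with 1, 1 and 0 counts against 4, 0 and 0. Hdc had 2 counts, both with vemurafenib, and Mmp8 had 1, in vehicle 1. The part of neutrophils in the alarmin counts was not tested. Known receptors of the S100 proteins were at the edge of detection. Of 7 such genes 4 had counts, led by Bsg (basigin) with 14 and Ager with 8, while Tlr4 had none.

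Sprr1b had 0, 1 and 0 counts with vehicle and 4, 1 and 0 with vemurafenib, too few to show a difference or its absence. Its relative Sprr1a, another envelope precursor, named after its values were seen, had 30 counts in all.

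Added together, the 7 genes totalled 1309, 1330 and 43.3 CPM in the vehicle libraries. The totals with vemurafenib were 1335, 1268 and 2293 CPM. Vehicle 1, vehicle 2, vemurafenib 1 and vemurafenib 2 thus lay close together, with vehicle 3 far below and vemurafenib 3 above. As a share of all counts the 7 genes took 0.0041% in vehicle 3 (95% exact binomial interval 0.0005 to 0.0148). In the other libraries they took 0.130% to 0.225%.

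**Figure D3:**
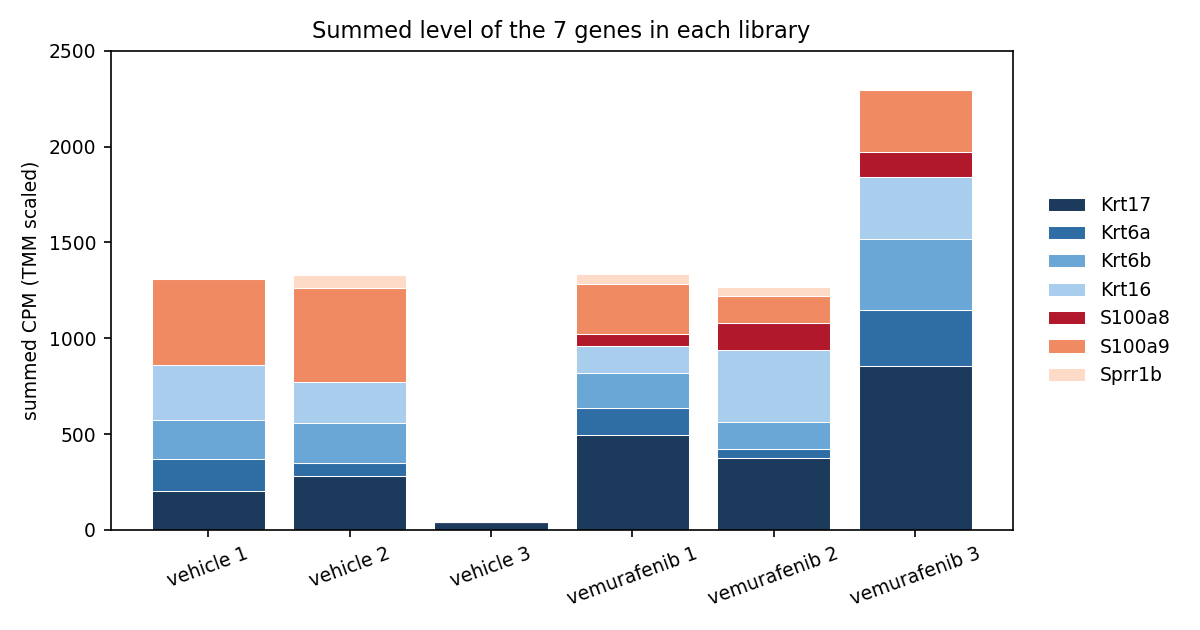
Summed CPM of the 7 genes in each library, stacked by gene. Vehicle 1, vehicle 2, vemurafenib 1 and vemurafenib 2 sit between 1268 and 1335, vehicle 3 at 43.3 and vemurafenib 3 at 2293, and the Krt17 layer is deeper in each vemurafenib library.

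The 6 genes other than Krt17 totalled 1105, 1050 and 0 CPM in the vehicle libraries, against 843, 892 and 1440 CPM in the vemurafenib libraries. The log2 ratio of the group means was 0.56, and without vehicle 3 it was -0.026. The 4 keratins gave 1.16, which became 0.61, and the 2 alarmins with Sprr1b gave 0.20, which became -0.39. No p-value is given for these sums, because the genes were chosen with results of these data known.

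Krt17 took a varying part of the 4 wound-edge keratins. It held 5 of 21 counts in vehicle 1 (23.8%), 4 of 11 in vehicle 2 (36.4%) and both counts in vehicle 3. The shares with vemurafenib were 51.4%, 40.0% and 46.4%. Over each group this was 32.4% with vehicle (95% exact binomial interval 17.4 to 50.5) and 47.9% with vemurafenib (40.0 to 55.8). These intervals overlap, but they pool reads over libraries and are no test of a difference. The type II keratins Krt6a and Krt6b together took 38.2% of the 4 with vehicle (22.2 to 56.4) and 33.1% with vemurafenib (26.0 to 40.9). Krt6a made up 41.8% of the counts of Krt6a and Krt6b over all libraries (29.8 to 54.5).

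Whether the other genes moved with Krt17 was asked over the 6 libraries on log2(CPM + 10). Krt6b and Krt6a had Pearson's r of 0.91 and 0.88 with Krt17 (exact permutation p = 0.0264 and 0.0375, each 0.112 when adjusted over the 6 relations). Spearman's rho was 0.54 and 0.60 (exact permutation p = 0.297 and 0.242, each 0.533 adjusted). Leaving out vehicle 3 and vemurafenib 3, the libraries farthest from the median of Krt17, r became -0.55 for Krt6b and -0.20 for Krt6a. That choice removes the ends of the Krt17 range, and the 4 libraries between them say little about the relation. Without vehicle 3 alone, r was 0.58 for Krt6b and 0.49 for Krt6a.

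Krt16 gave r = 0.84 and rho = 0.49 (exact permutation p = 0.0875 and 0.356, adjusted 0.131 and 0.533), with r = -0.45 without the same libraries and 0.02 without vehicle 3 alone. S100a9 gave r = 0.78 and rho = 0.14 (exact permutation p = 0.117 and 0.803, adjusted 0.14 and 0.803), with r = -0.66 without them and -0.35 without vehicle 3. S100a8 gave r = 0.75 and rho = 0.76 (exact permutation p = 0.0667 and 0.117, adjusted 0.131 and 0.533), with r = 0.81 both without them and without vehicle 3, on 13 counts in all. S100a8 had no count in any vehicle library, so its r mostly restates the difference between the groups. In vemurafenib 1, 2 and 3 it lay at 64.8, 141 and 133 CPM, beside 493, 376 and 853 CPM for Krt17. Sprr1b gave r = 0.32 and rho = 0.21 (exact permutation p = 0.6 and 0.733, adjusted 0.6 and 0.803), with r = 0.71 without them and -0.15 without vehicle 3. No relation passed after adjustment. In vehicle 1 and 2, where Krt17 was lower than in any vemurafenib library, Krt6a, Krt6b, Krt16 and S100a9 were above the lowest vemurafenib library.

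Fewer keratinocytes and less RNA per keratinocyte cannot be told apart in whole skin, so Krt17 was also set against other epidermal genes. The 30 keratinocyte genes totalled 4542, 8400 and 5257 CPM in the vehicle libraries, against 6457, 7089 and 8346 CPM in the vemurafenib libraries. Vehicle 3 therefore held 243 keratinocyte counts beside its 2 counts of Krt17. The 6 other genes had none there, which allows up to 1.23% of their sum with the keratinocyte list. In vehicle 1 and 2 they made up 19.6% and 11.1% of that sum, and in vemurafenib 1, 2 and 3 they made up 11.5%, 11.2% and 14.7%.

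Krt17 made up 4.31%, 3.23% and 0.816% of its sum with the keratinocyte list in vehicle 1, 2 and 3. With vemurafenib the shares were 7.09%, 5.03% and 9.28%, all above vehicle. The difference of the mean log2 ratio of Krt17 to the keratinocyte list was 1.52 (exact permutation p = 0.1, the smallest possible), and without vehicle 3 it was 0.84. Against 13 related keratins, with Krt14, Krt1, Krt10 and Krt5 the most counted, it was 1.42 (exact permutation p = 0.1) and the groups again did not overlap.

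Against Krt5 and Krt14, the keratin pair of basal keratinocytes, the groups overlapped. Krt17 gave 5 of 17, 4 of 26 and 2 of 8 counts of its sum with Krt5 and Krt14 in the vehicle libraries. With vemurafenib it gave 38 of 138 (27.5%), 8 of 33 (24.2%) and 32 of 80. The difference of the mean log2 ratio was 0.45 (exact permutation p = 0.6). Vehicle 3 had 6 counts of Krt5 and Krt14 together, 130 CPM, so it was low in the basal pair as it was in Krt17. Of the keratin pair of the layers above, Krt10 lay at 433 CPM in vehicle 3, between the 286 and 980 CPM of vehicle 1 and 2. Krt1 lay at 281 CPM there, below the 982 and 490 CPM of vehicle 1 and 2 and next to the 285 CPM of vemurafenib 1.

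**Figure D4:**
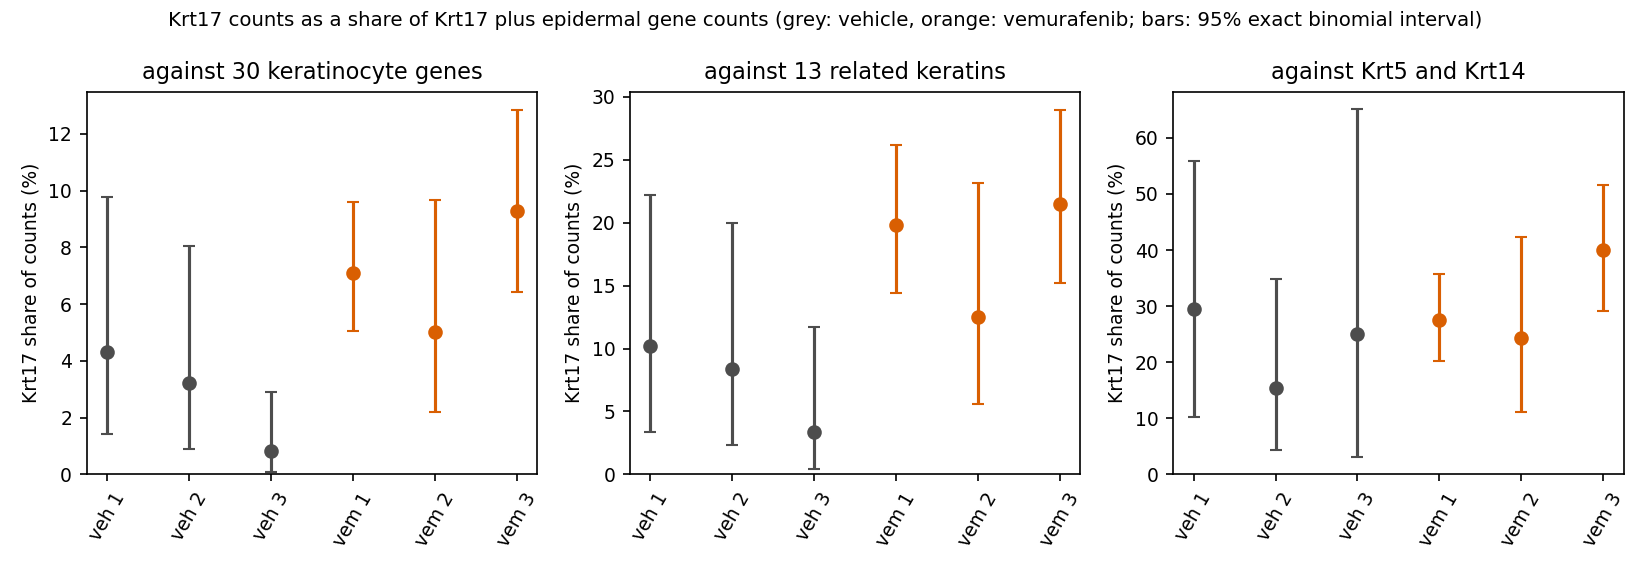
Krt17 counts as a percent of Krt17 plus 30 keratinocyte genes (left), plus 13 related keratins (middle) and plus Krt5 and Krt14 (right), per library, with 95% exact binomial intervals. The vemurafenib libraries lie above the vehicle libraries in the left and middle panels, and the groups overlap in the right panel.

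Krt5, the type II partner of Krt14 that Krt17 can also pair with, lay at 40.9, 210 and 21.6 CPM in the vehicle libraries, against 246, 282 and 453 CPM in the treated ones, on 47 counts in all. Its groups did not overlap either, and it shares 6.21% of the 50-base stretches of Krt6a. Gm44323, named after its values were seen, lies opposite 129 bp of Krt5 exons. It averaged 573 CPM with vehicle and 717 CPM with vemurafenib, so the strand limit reaches Krt5 too. Krt14 lay at 450, 1330 and 108 CPM against 1050, 892 and 827 CPM, with overlapping groups and a log2 fold change of 0.78 ± 0.61 (edgeR adjusted p = 0.966). Krt1 and Krt10 had values of -0.12 ± 0.50 and -0.11 ± 0.55 (adjusted p = 0.995 for each).

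Among 15 genes for proteins that pair with or act on keratins, 4 were tested and 0 passed, beside a median log2 fold change of 0.02 over all tested genes. All 4 are plakins, the proteins that anchor keratin filaments to junctions, and the median log2 fold change of these 4 was 1.01. Dsp (desmoplakin) had 1.20 ± 0.47, Ppl (periplakin) 1.46 ± 0.58, Evpl (envoplakin) 0.83 ± 0.45 and Plec (plectin) 0.21 ± 0.43, with adjusted p-values between 0.874 and 0.995. The related proteins Dst (dystonin) and Macf1, outside that list and named after their values were seen, had -0.28 ± 0.46 and 0.09 ± 0.46 (adjusted p = 0.995 for each), so the median is that of the list and not of plakins in general. These values come from the same libraries as Krt17 and are no separate evidence.

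Of 20 genes known to regulate these keratins, Fosl2, an AP-1 subunit, was tested and did not pass, with a log2 fold change of 0.31 ± 0.49 (adjusted p = 0.995). Klf4, a factor of epidermal differentiation, averaged 101 ± 44.0 CPM in the vehicle libraries, against 294 ± 139 CPM in the treated ones (SD, n = 3), on 47 counts. Among the 16 untested genes of this list with at least 6 counts, Egfr, Junb and Klf4 lay higher in every vemurafenib library and 0 lay lower, against backgrounds of 6.73% and 3.5%. These 3 were singled out after their values were seen, and Egfr had 7 counts in all. The share is not particular to regulators. By the same measure 3 of 17 genes of the keratinocyte list and 2 of 4 related keratins lay higher, and 0 of either lay lower.

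A wider list of 44 wound-edge genes, with proteases, growth factors and laminin chains, had counts for 35. Krt17 was the only tested member, and 0 passed. Of 12 other members with at least 6 counts, 1 (Lama3, a laminin chain named after its values were seen) lay higher in every vemurafenib library, beside a background of 6.73%. The matrix protein tenascin C (Tnc) had most counts after Krt17, and 34 of its 68 counts were in vehicle 3. Plaur, Mmp13, Mmp10, Areg and Ereg were among the 9 listed genes with no count. The list totalled 2251, 2520 and 1103 CPM in the vehicle libraries, against 2762, 2066 and 3707 CPM, which overlap. These totals include members followed above, among them Krt17, Krt16 and S100a9, so they are no separate evidence. In vehicle 3, Tnc gave 736 of the 1103 CPM.

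Other tissue parts moved across the same libraries. The 12 fibroblast genes totalled 35275, 51449 and 79749 CPM in the vehicle libraries, against 39766, 46527 and 21892 CPM in the vemurafenib libraries. They were highest in vehicle 3, where the 7 genes were lowest, and lowest in vemurafenib 3, where the 7 were highest. Hair follicle genes totalled 545 to 980 CPM in 5 libraries and 8186 CPM in vemurafenib 3, where Tchh, the trichohyalin of the inner root sheath, had 245 counts. Krt79, a keratin of the follicle opening and sebaceous duct, had 0, 0 and 0 counts with vehicle and 5, 1 and 10 with vemurafenib. Of 7 untested follicle genes with at least 6 counts, 1 (Krt79) lay higher in every vemurafenib library, against a background of 6.73%. Postn, the only tested gene of that list, had a log2 fold change of -1.38 and did not pass. It averaged 407 CPM with vehicle and 202 CPM with vemurafenib. The 12 macrophage genes totalled 671 to 737 CPM in the vehicle libraries, against 533 to 1024 CPM. The part of tissue makeup in the Krt17 difference was not tested. Without vemurafenib 3, and with a total of at least 10 counts as the filter, the log2 fold change of Krt17 was 1.63 (adjusted p = 0.695).

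Of 266 tested genes other than clone and predicted symbols, Dsp was the most like Krt17 across the 6 libraries, with r = 0.97 on log2 CPM. Dsp lay at 655, 980 and 303 CPM in the vehicle libraries, against 1011, 1268 and 1893 CPM. Gm10129, named after its values were seen, lies opposite 499 bp of Dsp exons and had r = 0.91 with Krt17. Without the strand setting, reads of Dsp and Gm10129 there cannot be told apart. Zmynd15 (r = 0.92), Glmp (r = 0.91), Arhgef40 (r = 0.90) and Arid1a (r = 0.88) followed. At the other end were Col7a1, the collagen of anchoring fibrils (r = -0.94), Med12l (r = -0.93) and Shc4 (r = -0.90). These are ranks over 6 libraries that share depth and composition, given as a description.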

How the data were processed

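Poly(A) RNA of skin was sequenced as stranded single-end libraries made with a KAPA kit, per the labels' protocols. The authors deposited whole-number read counts per gene symbol, handled with HISAT2 and HTSeq on mm10 per the submitters' processing notes. No source used here gives versions, annotation or strand setting. Of the table's columns, 1 matches no sample and was left out. Groups came from the sample titles.

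Genes were kept by filterByExpr (smallest count 10, smallest total 15) and scaled by TMM. Genes were tested with edgeR 4.0.16 in R 4.3.3 by its robust quasi-likelihood test, with group as the only term and Benjamini-Hochberg adjusted p under 0.05 over 477 genes. It was tested on simulated data. Each SE was taken from the log2 fold change and the root of its F value. Members under the filter were compared on log2(CPM + 10) by a two-sided exact permutation test, and log2 ratios of Krt17 used a pseudocount of 0.5. Intervals are exact binomial at 95%, and these and the floors cover counting error only. The genes most like Krt17 were ranked on log2 CPM with a prior count of 2. Positions, exons and transcripts came from GENCODE M21, and promoters from RefSeq. DESeq2 1.42.0 and limma 3.58.1 were alternatives, beside other scalings and filters, a replicate block and leaving out each library.

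The members and lists were chosen with earlier results of these data known. Named genes were the 7 members, the up to 4 genes with most counts in each list, the 5 tested genes most like Krt17 and the 3 least like it, and features at the members' loci. Any other gene is marked as chosen once values were known.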

Additional observations from a re-analysis of the deposited data

How the results depend on the processing

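The filter of at least 10 counts combined with leaving out a library was chosen after seeing the data, because the usual filter drops Krt17 without vemurafenib 1 or vemurafenib 3. Krt17 kept its direction in all 19 alternatives and passed in none. It was higher in each vemurafenib library than in any vehicle library, so leaving out a library could hardly turn the direction. All alternatives reuse the same libraries. The log2 fold change of Krt17 ran from 1.33 to 2.42 when leaving out 1 library, and from 1.27 to 2.38 with the combined filter. With the replicate number as a block it was 2.00 (adjusted p = 0.0648) and 0 genes were called. Deviations of libraries with the same number had correlations of 0.04, -0.08 and -0.33, so the numbers were not taken to pair them. The 0 genes called became 3 with no filter beyond 1 count and 3 with a total of at least 10, 0 to 2 when leaving out 1 library and 0 to 4 with the combined filter. Krt17 relative to the keratinocyte list ran from 0.84 to 1.97 when leaving out 1 library. The sum of the 6 other genes, 0.56, ran from -0.026 without vehicle 3 to 1.01 without vehicle 1. S100a9 reversed to -1.01 without vehicle 3 and was 1.81 without vehicle 2. The cause was not tested. In edgeR fits S100a9 was also negative with a total of at least 10 counts (-0.02), without vemurafenib 1 (-0.09) and without vemurafenib 3 (-0.20), and with the combined filter Krt16 was -0.025 without vehicle 3. On log2(CPM + 10) the differences of Krt6a, Krt6b, Krt16, S100a8 and Sprr1b kept their direction. For S100a8 that direction was fixed by the lack of counts in every vehicle library. Depth limits every statement on Krt6a, Krt6b, Krt16, S100a8 and Sprr1b, which had 6 to 41 counts in all.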
